A study of Ovis aries with 18 samples.

Results

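PTGS2 encodes prostaglandin-endoperoxide synthase 2, the inducible cyclooxygenase. Its probes were taken as all array probes annotated with the RefSeq transcript of sheep PTGS2, which gave 2 of the 15008 non-control probes, A_70_P039256 and A_70_P039257, for 1 of 949 genes that could be named. Whole blood of 6 adult female sheep was measured, each animal's blood having been split and kept for 90 minutes with PBS, LPS or MPLA, for 18 arrays in all and 6 per treatment. For this step the paper's methods give a warmed incubation and its abstract gives room temperature. PBS is the buffer control, LPS is the lipopolysaccharide of the Gram-negative bacterial wall, and MPLA is monophosphoryl lipid A, a derivative of its lipid portion with 1 phosphate group fewer. LPS was added at 1 µg and MPLA at 10 µg, given per mL in the methods, so agonist and amount cannot be told apart where MPLA is set against LPS. The blood was drawn into heparin and treated outside the body, so that no vessel wall or organ took part.

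Cyclooxygenases turn arachidonic acid, which phospholipases free from membranes, into prostaglandin H2, from which terminal synthases make the prostaglandins and thromboxane. PTGS1 is the form present in most resting cells. PTGS2 is the early response form, which monocytes and other myeloid cells make when TLR4, the receptor that senses LPS through CD14 and LY96, activates NF-κB and the MAP kinases, and its mRNA is unstable because of AU-rich elements. Prostaglandin E2, which a terminal synthase makes from prostaglandin H2, takes part in fever, pain and the control of cytokine release.

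Levels are given as the processed signal of a probe divided by the 75th percentile of all non-control probes on the same array. That percentile was lowest for animal 170 with PBS (24.8) and highest for animal 71Y with PBS (124.2), and between 23.9 and 45.1% of probes were marked well above background. The arrays lay on 3 slides. As a check of the tissue, probes of the T cell genes CD3D and CD3E, the monocyte genes CD14 and LYZ, the haemoglobin gene HBB and the cytotoxic cell gene GNLY were well above background on all 18 arrays. Probes of CD4 and of the myeloid integrin gene ITGAM were not well above background on any array, and that of the neutrophil granule gene LTF was on 5 of 18. In blood as a whole, more cells that express PTGS2 and more PTGS2 mRNA per cell cannot be told apart.

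The probe A_70_P039256 was well above background on all 18 arrays and saturated on none. With PBS its level was 2.07 at the lowest (animal 71Y), 8.47 at the median and 20.8 at the highest (animal 170). With LPS it was 36.2 (animal 71Y), 42.4 and 56.1 (animal 65Y). With MPLA it was 12.3 (animal 80), 23.8 and 51.3 (animal 20). Every LPS array was above the highest PBS array, with no overlap. Of the MPLA arrays, 4 of 6 were above the highest PBS array, and the MPLA and LPS arrays overlapped. On the log2 scale the means were 2.84 ± 1.17 with PBS, 5.47 ± 0.25 with LPS and 4.60 ± 0.76 with MPLA (SD, n = 6 each). The order within an animal was LPS over MPLA over PBS in 5 of 6 animals, and MPLA over LPS over PBS in animal 20.

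**Figure D1:**
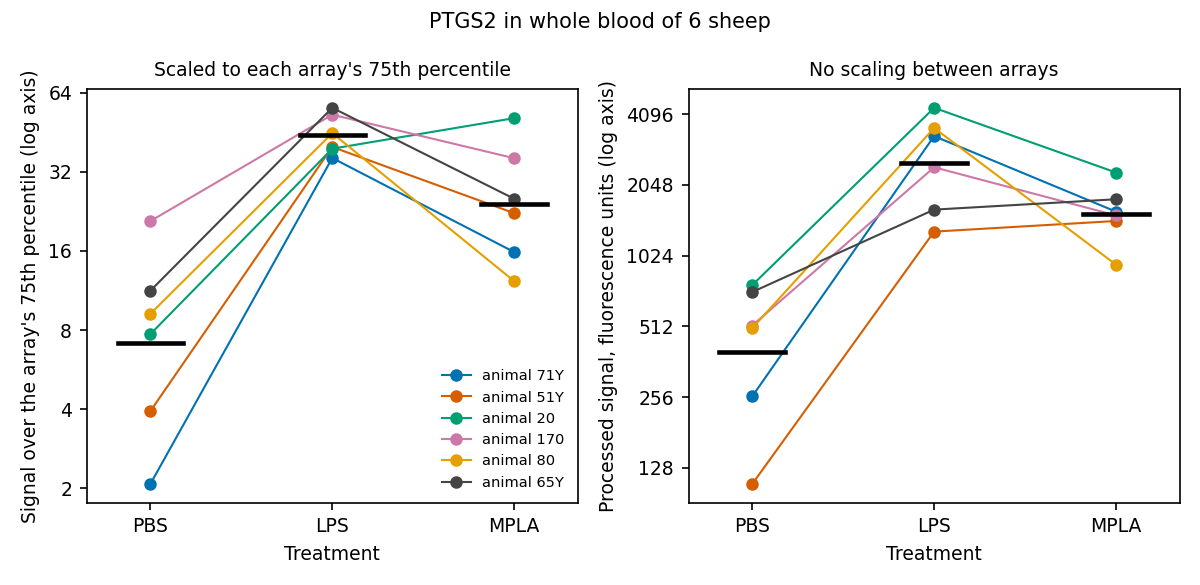
PTGS2 level (probe A_70_P039256) under each treatment, with 1 line per animal and a black bar at the mean of the 6 log2 values. The left panel gives the signal over the array's 75th percentile and the right panel the processed signal with no scaling, both on log axes. All 6 LPS points lie above all 6 PBS points in both panels, while the LPS points lie closer together in the left panel than in the right.

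The scaling bore on which animal was highest or lowest. Before scaling, the processed signal of the PBS arrays ran from 109 (animal 51Y) to 766 (animal 20), and animal 170 had 516, near the middle of the group, on the array with the lowest 75th percentile. The LPS arrays ran from 1295 (animal 51Y) to 4355 (animal 20) and the MPLA arrays from 936 (animal 80) to 2310 (animal 20), and on this scale neither the LPS nor the MPLA arrays overlapped with the PBS arrays. The error that the scanner software attached to a single spot was about 10% of its signal (10.0 to 10.6%), which leaves out variation from the RNA, the labelling and the array.

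The first comparison asked whether LPS changed PTGS2 relative to PBS in the same animals. PTGS2 was higher with LPS in 6 of 6 animals and rose by 2.63 on the log2 scale, a 6.17-fold rise (95% interval 3.76 to 10.1-fold, SE 0.32 and SD 0.97 on the log2 scale, n = 6, limma adjusted p 0.0024). The exact sign-flip permutation test of this probe alone gave a p of 0.03125, the smallest that 6 animals allow. Of the 4122 probes tested, 37 were called, which is 0.898%, and 14 had a larger rise than PTGS2. The median change over all tested probes was -0.01.

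The size of the rise differed between animals. The log2 change was 4.12 in animal 71Y and 3.34 in animal 51Y, which had the lowest PBS levels. It was 2.35 in animal 20, 2.31 in animal 65Y and 2.29 in animal 80. It was smallest in animal 170, at 1.35, which had the highest PBS level. Since the PBS level enters each of these changes, the order of the changes and the order of the PBS levels are not separate observations. Without scaling, the change in animal 170 was 2.24 and the smallest was that of animal 65Y, at 1.16. Within the slides the mean changes were 2.73, 2.30 and 2.84, with 2 animals on each. Without animal 170, whose PBS array was the dimmest, the mean change was 2.88 and was called.

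For MPLA against PBS, PTGS2 was 3.38-fold higher on average (95% interval 1.97 to 5.79-fold) and higher in 6 of 6 animals, but did not pass the threshold over all probes (log2 change 1.76, SE 0.35, SD 1.09, n = 6, limma adjusted p 0.052). The exact sign-flip permutation p for the probe alone was again 0.03125. In this comparison 41 of 4122 probes were called (0.995%), and 24 had a larger rise than PTGS2. PTGS2 was called under 19 of 28 alternatives, 2 of them tests without adjustment, with log2 changes between 1.36 and 2.03 and adjusted p-values between 0.0013 and 0.79. Of the 6 fits that left out 1 animal, 2 called PTGS2, without animal 20 (1.56, limma adjusted p 0.035) and without animal 80 (2.03, limma adjusted p 0.028). The adjusted p was 0.051 without animal 170, 0.092 without 65Y, 0.18 without 71Y and 0.28 without 51Y in limma.

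The size of the change with MPLA also differed between animals. In animals 71Y, 20 and 51Y the log2 changes were 2.93, 2.73 and 2.50. In animals 65Y, 170 and 80 they were 1.16, 0.80 and 0.41. All 3 of the lower values came from animals whose MPLA array lay on slide 2, and none of the higher ones did. Under every scaling tried, animals 71Y, 20 and 51Y stayed above the other 3, and a gap remained in all but the values without scaling. With median scaling, for example, the nearest values were 2.66 in animal 51Y and 1.52 in animal 170. Without scaling the gap nearly closed, at 1.59 in animal 20 and 1.56 in animal 170. The others then ran from 0.90 in animal 80 to 3.72 in animal 51Y. The within-slide means were 0.79 for the 2 animals with both arrays on slide 2, 2.62 for the 2 animals of slide 3 and 2.93 for the 1 animal of slide 1. The change of animal 170 crosses slides, from PBS on slide 1 to MPLA on slide 2, and the other 5 animals had both arrays on 1 slide, so that slide and animal cannot be told apart here. With slide in place of animal in the model, the change was 1.68 and the adjusted p was 0.79.

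**Figure D2:**
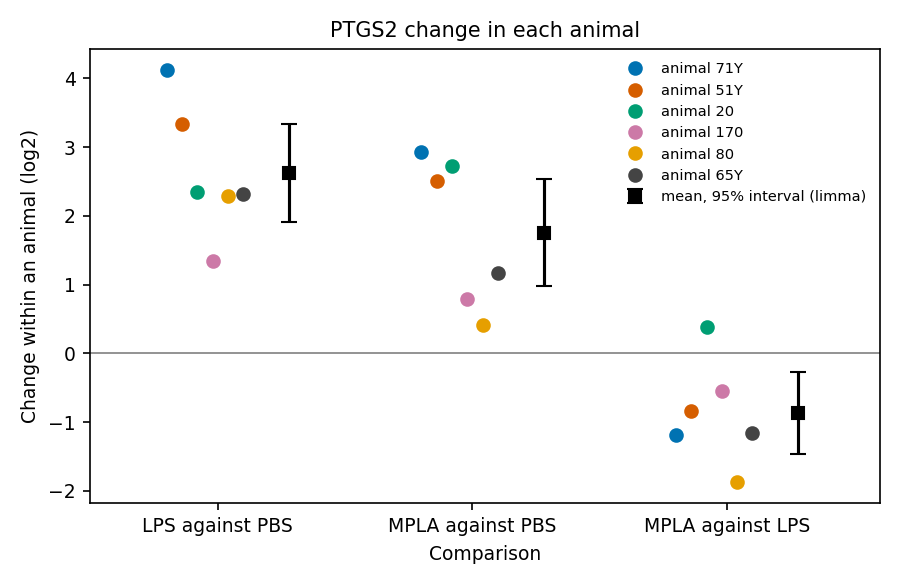
Change of PTGS2 within each animal (log2, y axis) in the 3 comparisons (x axis). Coloured points are single animals, and black squares with bars are the mean and its 95% interval from limma. All 6 points are above 0 for LPS and for MPLA against PBS, and 5 of 6 are below 0 for MPLA against LPS.

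The last comparison set MPLA against LPS directly in the same animals, at the unequal amounts given above. With MPLA the PTGS2 level was the lower one in 5 of 6 animals, at 0.547 times the LPS level (95% interval 0.363 to 0.826), and the difference did not pass the threshold (log2 difference -0.87, SE 0.27, SD 0.76, n = 6, limma adjusted p 0.84). Only 2 of 4122 probes were called there (0.0485%), and the unadjusted limma p of PTGS2 was 0.0085. The exact sign-flip permutation test gave 0.0625. Without animal 20 the difference was -1.12 (limma adjusted p 0.071). The differences were -1.87 in animal 80, -1.19 in animal 71Y, -1.15 in animal 65Y, -0.84 in animal 51Y, -0.55 in animal 170 and 0.39 in animal 20.

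The higher MPLA level of animal 20 depended on the scaling. The MPLA array of that animal had a 75th percentile of 45.0, against 111.0 on its LPS array, and without scaling the difference in that animal was -0.91. Animals 51Y and 65Y were then the ones with a higher MPLA value, by 0.15 each, so that 4 of 6 animals were lower. With median scaling animal 20 was at -0.34 and animal 170 at 0.30. Under the other scalings animal 20 stayed the one with the higher MPLA level, by 0.11 with quantile normalization and 0.39 in the authors' table. Expressed against the rise with LPS, the rise with MPLA on the log2 scale was 18.1% in animal 80, 50.3% in animal 65Y, 59.1% in animal 170, 71.1% in animal 71Y, 74.9% in animal 51Y and 116% in animal 20. Both rises share the animal's PBS array.

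**Figure D3:**
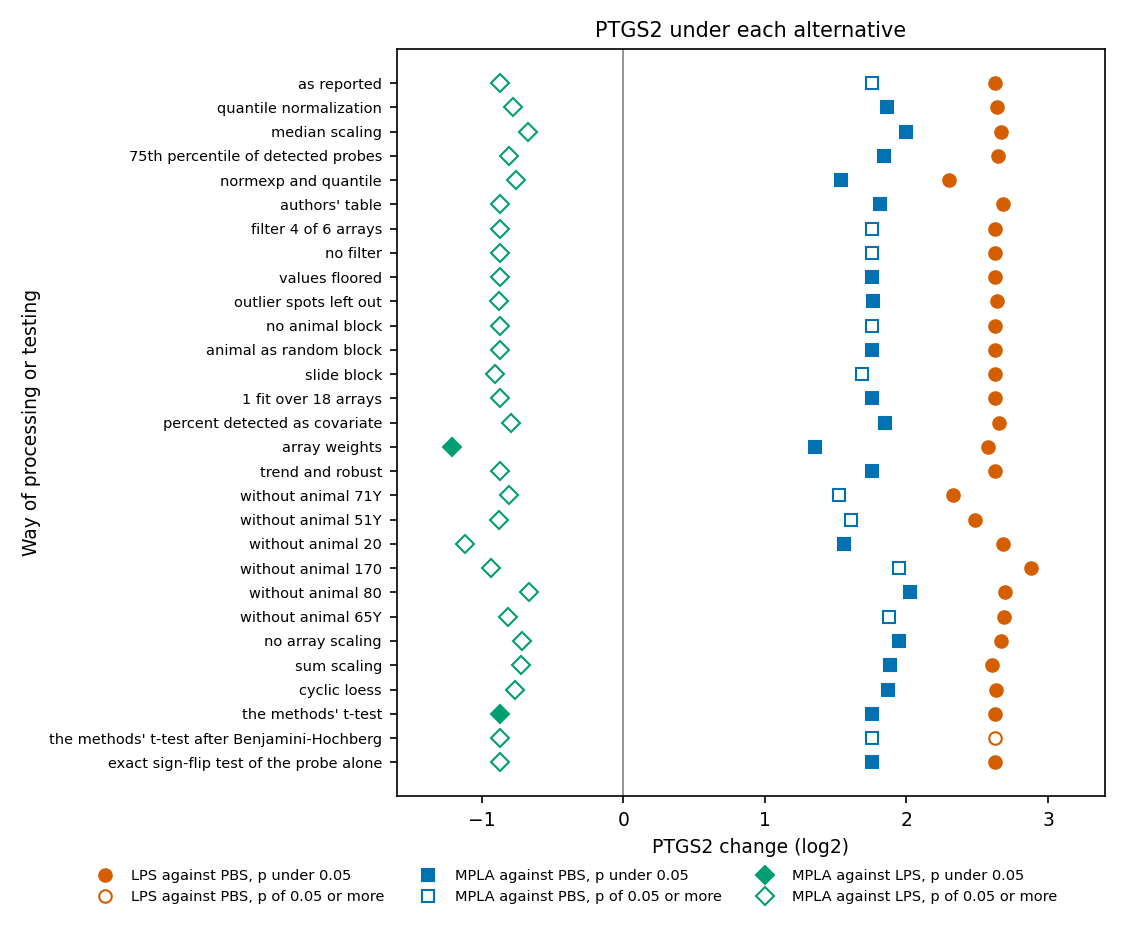
PTGS2 change (log2, x axis) as reported and under each of 28 alternatives (y axis) in the 3 comparisons. Filled symbols have a p under 0.05, adjusted over all tested probes except in the rows of the methods' t-test without Benjamini-Hochberg and of the exact sign-flip test, which are unadjusted. LPS against PBS is filled in all rows but 1, MPLA against PBS lies on both sides of the threshold, and MPLA against LPS is filled in 2.

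The spread of PTGS2 between animals was uneven. The SD of the log2 level was 1.17 with PBS, 0.25 with LPS and 0.76 with MPLA. The ratio of the LPS to the PBS SD was 0.216, against a median of 0.803 over the tested probes, and 0.194% of them had a lower ratio. This feature was chosen after the values were seen, so no test is given. It depended in size on the scaling. Over the 10 other ways of scaling or correcting the signal the ratio ran from 0.212 to 0.643, the highest being with no scaling, where 4.78% of probes had a lower ratio and the SD was 1.07 with PBS, 0.69 with LPS and 0.43 with MPLA. The residual SD of PTGS2 in the LPS against PBS fit was 0.68, larger than in 91.6% of the probes, where the median was 0.35.

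The second probe, A_70_P039257, was dim. It was well above background on 0 of 6 PBS, 2 of 6 LPS and 0 of 6 MPLA arrays, the 2 being those of animals 20 and 80, and it was left out of the tests for that reason. Its background-subtracted signal was -2.13 at the lowest, 0.41 at the median and 4.41 at the highest with PBS. With LPS it was 5.15, 16.0 and 34.8, and with MPLA it was -3.57, 11.5 and 17.8. All LPS arrays were above all PBS arrays, and 2 of the MPLA arrays (animals 80 and 65Y) were below 0.

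The scanner software also marks a weaker limit, whether a spot is significantly brighter than background. The second probe passed it on 0 of 6 PBS, 6 of 6 LPS and 4 of 6 MPLA arrays. With LPS against PBS, 6 animals passed with LPS only and 0 with PBS only (exact McNemar p 0.03125, Benjamini-Hochberg adjusted over the 3 comparisons 0.094). With MPLA against PBS it was 4 and 0 (exact p 0.125, adjusted 0.19). The mean of the LPS arrays stayed below the lowest signal counted as well above background on the PBS arrays, so no fold change is given for this probe. Where in the transcript either probe lies was not examined here.

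**Figure D4:**
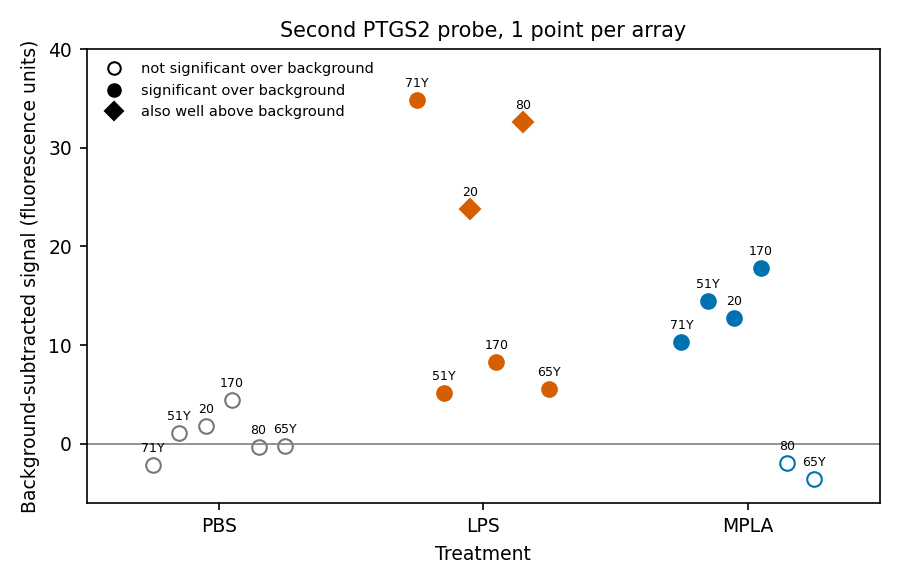
Background-subtracted signal of the second PTGS2 probe (fluorescence units, y axis) on each of the 18 arrays by treatment (x axis), labelled by animal. Open points were not significantly brighter than background, filled circles were, and diamonds were also well above background. All 6 PBS points are open and lie between -2.13 and 4.41, all 6 LPS points are filled, and 4 of 6 MPLA points are filled.

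Around PTGS2, a list of 45 genes of prostaglandin and leukotriene metabolism had 8 genes with a named probe, of which 2 were tested, PTGS2 itself and PPARG. With LPS 1 rose (PTGS2) and 1 fell (PPARG), beside 0.898% of all tested probes called. With MPLA 0 rose and 1 fell (PPARG), beside 0.995%. Between MPLA and LPS limma called 0 of 2, beside 0.0485%. PTGS2 was the 1 of 2 with an unadjusted p under 0.05, beside 190 of 4122 tested probes. By the methods' t-test 1 of 2 passed, beside 52 of 4122. The median log2 change over the 2 was 0.75, 0.27 and -0.48 in the 3 comparisons, and with 2 genes it describes little beyond them. With no filter on dim probes 8 genes of the list were tested, and the calls were 1 with LPS and 0 with MPLA. Over all 15008 probes that setting called 27 with LPS and 24 with MPLA. The other genes of the list had no named probe or were too dim to test.

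No phospholipase or lipoxygenase gene of the list had a named probe. PTGS1, the constitutive cyclooxygenase, was well above background on 5 PBS, 4 LPS and 4 MPLA arrays. With the filter eased to 4 of 6 arrays of a treatment, which tested 4992 probes, its log2 change was -0.52 ± 0.33 with LPS (SD, n = 6, limma adjusted p 0.78) and -0.82 ± 1.02 with MPLA (SD, n = 6, limma adjusted p 0.69), lower in 6 of 6 animals each time, where arrays not well above background enter with a dim or fixed low value. That filter called 0.641% of probes with LPS, 0.741% with MPLA and 0.02% between the agonists, and PTGS2 kept its side of the threshold in all 3 comparisons. AKR1B1, an aldose reductase that can make prostaglandin F, was well above background on 3 of 18 arrays, and PTGDS, a prostaglandin D synthase, on 1.

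The receptors and the transporter were at or near background as well. PTGER2, a prostaglandin E2 receptor, had 2 probes, well above background on 0 and 1 of 18 arrays. PTGFR, the prostaglandin F receptor, was on 0, and SLCO2A1, which takes prostaglandins up into cells, on 1. No level or direction is given for these genes.

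PPARG, a nuclear receptor that some prostaglandin D2 metabolites bind, moved the opposite way to PTGS2. Its level with PBS was 1.66 at the lowest, 2.38 at the median and 4.20 at the highest. With LPS it was 0.804, 1.17 and 1.69, and with MPLA it was 0.791, 0.965 and 1.64. The LPS and PBS arrays overlapped slightly, while the MPLA and PBS arrays did not.

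PPARG fell by 1.12 ± 0.31 on the log2 scale with LPS and by 1.21 ± 0.41 with MPLA (SD, n = 6, limma adjusted p 0.0084 each), lower in 6 of 6 animals with both. The LPS call held under 18 of 25 alternatives and was lost, among others, without animal 20, without animal 80 and with no scaling, where the direction stayed the same (-1.28 to -0.55 over the 25). The MPLA call held under 21 of 25 and was lost with no filter, no replicate block, slide as the block and no scaling (-1.32 to -0.65 over the 25). MPLA differed from LPS by -0.09 ± 0.56 (SD, n = 6, limma adjusted p 0.94), and the sign of that difference turned in 4 of 25 alternatives.

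Of 54 genes of TLR4 signalling, NF-κB, early response factors and mRNA decay that bear on PTGS2, 11 had a named probe and 6 were tested. With LPS 1 of 6 rose and 0 fell, beside 0.898% of all tested probes called, and 1 had an unadjusted p under 0.05. With MPLA 1 of 6 rose and 0 fell, beside 0.995%, and 3 had an unadjusted p under 0.05. Between MPLA and LPS limma called 0 of 6, beside 0.0485% (1 at an unadjusted p under 0.05 and 1 by the methods' t-test). Of all 4122 tested probes, 156 had an unadjusted limma p under 0.05 with LPS, 286 with MPLA and 190 between the agonists. The methods' t-test passed 52 of them between the agonists. The median over the 6 was -0.04, -0.02 and -0.09, against -0.01, -0.09 and -0.08 over all tested probes. The gene that rose was the same in both comparisons, NFKBIZ, an atypical IκB protein that acts in the nucleus on secondary response genes.

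NFKBIZ had a level of 1.31 at the lowest, 2.73 at the median and 4.31 at the highest with PBS, of 9.73, 16.9 and 23.7 with LPS and of 5.20, 9.64 and 19.6 with MPLA. Neither agonist overlapped with PBS. It rose by 2.61 ± 0.50 on the log2 scale with LPS (SD, n = 6, limma adjusted p 0.00014) and by 1.79 ± 0.62 with MPLA (SD, n = 6, limma adjusted p 0.0029), and each of the 6 animals showed both rises. These mean changes stand beside 2.63 and 1.76 for PTGS2, whose SDs were larger, and the differences between the genes were not tested. The MPLA level was below the LPS level in each of the 6 animals, and the log2 difference was -0.82 ± 0.65 on average (SD, n = 6, limma adjusted p 0.84).

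The other members gave no call. CD14, the co-receptor for LPS, changed by -0.32 ± 0.22 with LPS and -0.48 ± 0.35 with MPLA (SD, n = 6, limma adjusted p 1.0 and 0.65). ZFP36, whose protein binds AU-rich elements and speeds mRNA decay, changed by -0.07 ± 0.21 and -0.09 ± 0.31 (limma adjusted p 1.0 and 0.81), and the sign with MPLA turned under other scalings. TIA1, another protein that binds such elements, changed by -0.11 ± 0.41 and -0.34 ± 0.28 (limma adjusted p 1.0 and 0.66). ATF4 was at -0.02 ± 0.75 and 0.40 ± 0.37, and the kinase gene IRAK4 at 0.05 ± 0.50 and 0.05 ± 0.28, with limma adjusted p between 0.66 and 1.0. NFKBIA, which encodes the inhibitor IκBα, was well above background on 3 PBS, 5 LPS and 5 MPLA arrays, so that no change is given for it, and with the eased filter it was not called (limma adjusted p 1.0 with LPS and 0.21 with MPLA). FOS and MYD88 were well above background on 0 arrays, TLR4 on 3 and the brighter EGR1 probe on 4 of 18.

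Markers of blood cell types and reference genes were read beside these values. Of 51 marker genes 9 had a named probe and 6 were tested, and limma called 0 in each comparison (0, 1 and 0 at an unadjusted p under 0.05, and 0 by the methods' t-test in each). Of all 4122 tested probes limma called 37, 41 and 2, and 156, 286 and 190 had an unadjusted p under 0.05. The methods' t-test passed 71, 92 and 52. With 6 genes, 0 calls is near those shares. The summed level of CD14 and LYZ ran from 26.8 to 53.8 with PBS, from 25.4 to 46.4 with LPS and from 21.7 to 57.5 with MPLA. That of CD3D and CD3E ran from 219.9 to 471.8, 223.4 to 474.4 and 242.2 to 517.2. Neutrophil, B cell and platelet markers were not tested, so the part of those cells in the PTGS2 levels was not tested. The reference gene GAPDH changed by -0.11 ± 0.25 with LPS and 0.22 ± 0.54 with MPLA (SD, n = 6, limma adjusted p 1.0 and 0.69), and the ACTB probe was well above background on 0 arrays.

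The tested genes whose pattern over the 18 arrays was most like that of PTGS2 were found by the Pearson correlation after each animal's mean was taken away. The 8 named genes, of 377 tested, had r between 0.861 and 0.938, while the median over all 4121 other tested probes was 0.085 and the 95th percentile was 0.488. The points share animals, treatments and the scale of each array, so the values are a description. In order they were NFKBIZ (0.938), LOC101104661 (0.918), TNF (0.909), IL6 (0.877), ATP1B1 (0.872), ETS2 (0.866), SERPINB2 (0.866) and CXCL1 (0.861). The unnamed probes A_70_P065446 (0.940) and A_70_P006161 (0.931) ranked 1 and 3 among all probes. The named gene with the most opposite pattern was PPARG (-0.66).

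All 8 correlations were smaller once the treatment means were also taken away. Then r with PTGS2 was 0.84 for ETS2, 0.78 for LOC101104661, 0.56 for NFKBIZ and ATP1B1, 0.37 for TNF, 0.18 for IL6, 0.04 for SERPINB2 and -0.21 for CXCL1. The median over all other tested probes was 0.46, so a positive remainder was common across probes, and its source was not tested. Of the 8 genes, 8 stayed among the nearest with Spearman's correlation and with quantile normalization, 6 without animal 170 and 5 when animal means were kept.

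**Figure D5:**
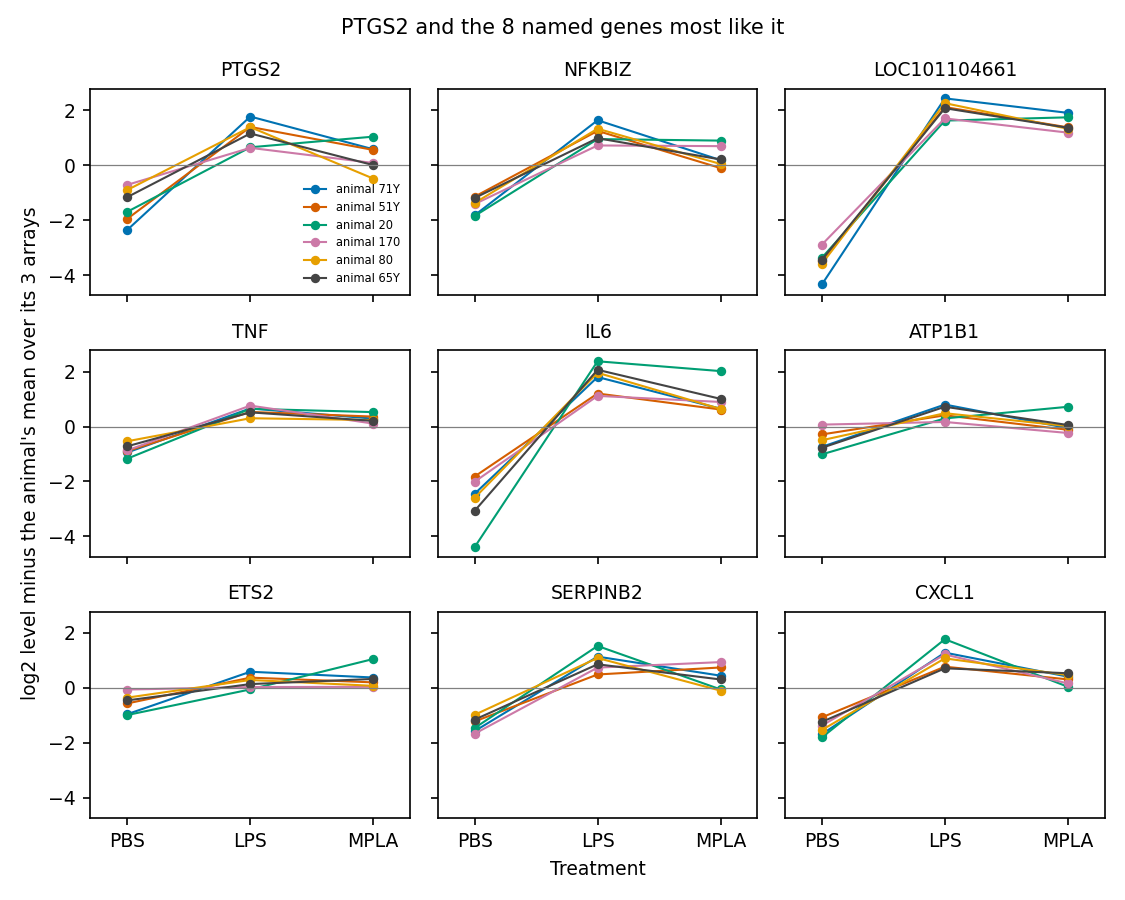
Levels of PTGS2 and of the 8 named genes most like it, as log2 level minus the animal's mean over its 3 arrays (y axis), by treatment (x axis), with 1 line per animal. PBS is the lowest point in every line but that of ATP1B1 in animal 170, and animal 20 has a higher MPLA than LPS point in PTGS2, LOC101104661, ATP1B1 and ETS2. PBS points of IL6 were not well above background.

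The spread between animals was also read in the 8 genes. As in PTGS2, the log2 SD was smaller with LPS than with PBS in 5 of them. The SDs were 0.41 and 0.93 for LOC101104661, 0.41 and 0.72 for ETS2, 0.60 and 0.95 for IL6, 0.47 and 0.60 for NFKBIZ and 0.54 and 0.66 for SERPINB2. The SD was larger with LPS in ATP1B1 (0.63 and 0.58), TNF and CXCL1. For IL6 the PBS SD does not measure spread between animals, since most of its PBS values were the fixed low value of a dim probe. For LOC101104661 it rested largely on the dim PBS array of animal 71Y, at -2.14 against -0.32 to 0.39 in the others. Over all tested probes the median ratio of the LPS to the PBS SD was 0.803, so a smaller SD with LPS was common. TNF, an early cytokine, had PBS levels of 29.0 at the lowest, 30.8 at the median and 38.4 at the highest, with a log2 SD of 0.14 that was 0.27 with LPS and 0.30 with MPLA. It rose by 1.42 ± 0.35 on the log2 scale with LPS (SD, n = 6, limma adjusted p 0.0021) and by 1.14 ± 0.33 with MPLA (SD, n = 6, limma adjusted p 0.0069). CXCL1, a neutrophil chemoattractant, had a log2 SD of 0.33 with PBS and 0.51 with LPS, and rose by 2.59 ± 0.64 with LPS and 1.77 ± 0.27 with MPLA (SD, n = 6, limma adjusted p 0.00036 and 0.0003). The PBS SD of PTGS2, at 1.17, was the largest among the PTGS2 probe and these 8 genes. The difference between these SDs was not tested.

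Of the remaining genes, SERPINB2, a plasminogen activator inhibitor, rose by 2.32 ± 0.48 with LPS and 1.72 ± 0.60 with MPLA on the log2 scale (SD, n = 6, limma adjusted p 0.00026 and 0.0031). LOC101104661, a protein-coding gene without a symbol in the table used, rose by 5.55 ± 0.75 and 5.0 ± 0.70 (SD, n = 6, limma adjusted p 6.5e-06 and 3.6e-06). On 1 of the 6 PBS arrays its probe was not well above background, so the mean PBS level includes 1 value below that mark. The changes of LOC101104661 ran down to 3.89 and 3.45 under other scalings. IL6, a cytokine, was well above background on 0 of 6 PBS and on all LPS and MPLA arrays, so its r rests on PBS values that are only bounds. It was at least 5.45-fold higher with LPS and at least 3.17-fold higher with MPLA (limma adjusted p 0.00054 and 0.0018), the mean of each being set against the lowest signal counted as well above background on the PBS arrays. Those p-values rest on PBS values below background, and where all values were floored at such a limit the LPS call was kept and the MPLA call was lost. The bounds hold only for the scaling used here. Under other scalings the log2 changes of IL6 ran down to 1.51 with LPS and 1.06 with MPLA, which is below them. ATP1B1, a subunit of the sodium pump, changed by 1.02 ± 0.55 with LPS and 0.60 ± 0.69 with MPLA (SD, n = 6, limma adjusted p 0.084 and 0.66). ETS2, a transcription factor, changed by 0.79 ± 0.48 and 0.91 ± 0.69 (SD, n = 6, limma adjusted p 0.21 and 0.26), so that 2 of the 8 most alike genes passed the threshold with neither agonist. Under 25 alternatives ATP1B1 was called in 11 with LPS and 1 with MPLA, and ETS2 in 6 and 5.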

How the data were processed

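RNA of the blood was amplified, labelled and hybridised by the authors to a 1-colour Agilent sheep array. The deposited intensities used here are the background-subtracted processed signal of Agilent Feature Extraction 11.5.1.1, per the file headers, in which a probe near background carries 1 fixed low value per array (32.1 to 52.8% of non-control spots). A deposited table of ratios by the authors, each signal divided by roughly the 75th percentile of its array, served as an alternative. The methods state scaling to that percentile, and the scale of the table itself was checked against the scanner intensities.

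Spots of a probe were averaged, log2 was taken and the array's 75th percentile of the processed signal was subtracted. Probes well above background on all 6 arrays of at least 1 treatment were tested, 4122 in all. Each pair of treatments was compared on 12 arrays by limma (version 3.58.1, R version 4.3.3) with animal as a fixed block and moderated two-sided tests, and a Benjamini-Hochberg adjusted p under 0.05 was the threshold for a call. Exact sign-flip permutation tests over the 64 sign patterns were two-sided. A change in a group without a measured level was bounded as described beside it. No probe was saturated. Precision is limited by the 6 animals.

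The titles name the animal, which pairs the arrays. Once treatment means were removed, the 18 same-animal pairs had a mean correlation of 0.59 and a lowest of 0.13. Names came from RefSeq accessions matched to the gene table of the assembly ARS-UI_Ramb_v3.0, used for names only (1265 of 2200 probes with an accession), and 7 came from the study's own table, giving 949 genes. Where several probes of a gene were tested, that of highest mean signal was used.

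PTGS2, the lists and the rules for naming genes were chosen with earlier results of these data known. Named were all PTGS2 probes, list genes, markers and reference genes with a named probe, the 8 named tested genes most correlated with PTGS2, and up to 2 unnamed probes ranking above the eighth. The model was tested on simulated data. Alternatives covered scaling, background correction, filters, the block, the slide, the test and each animal left out, and 3 (no scaling, sum scaling and cyclic loess) were added after seeing the data. The methods' t-test is a paired test with over 1.5-fold change. Normexp with an offset of 50 used the median spot signal. The human arm was not analysed here.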

Additional observations from a re-analysis of the deposited data

Results flagged for a closer look

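In groups of 6 values, 1 value was far from the other 5 in 5 of the 69 groups examined, where chance sets apart about 1 in 20 groups. None of the 5 was a PTGS2 value. All 5 belonged to animal 170 or animal 20.

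In animal 170, the LPS against PBS change of TIA1 was -0.88 on the log2 scale, against -0.13 to 0.29 in the other animals, and that of GAPDH was 0.36, against -0.29 to -0.07. The PBS array of this animal had the lowest 75th percentile of all.

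In animal 20, the MPLA against LPS difference was 0.42 for ATP1B1 and 1.11 for ETS2, against -0.86 to -0.40 and -0.21 to 0.19 in the other animals. Both genes are among those most like PTGS2, which was also higher with MPLA than with LPS in this animal alone (0.39). GAPDH went the other way there, at -0.45, against 0.41 to 0.67. How far the scale of that animal's MPLA array enters these values was not tested gene by gene, and for PTGS2 the sign turned without scaling (-0.91).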

How the results depend on the processing

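The rise of PTGS2 with LPS kept its direction under all 28 alternatives and its call under 27, with log2 changes from 2.30 (normexp) to 2.88. The exception was the methods' t-test after Benjamini-Hochberg adjustment (2.63, adjusted p 0.17). Leaving out each animal in turn gave 2.33 to 2.88, and all 6 were called.

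For MPLA against PBS, PTGS2 was called with quantile normalization (1.86), median scaling (1.99), the 75th percentile of detected probes (1.84), normexp (1.54), the authors' table (1.81), outlier spots left out (1.76), the percent of probes detected as a covariate (1.85), array weights (1.36), no scaling (1.95), sum scaling (1.88) and cyclic loess (1.87). It was also called at 1.76 with floored values, animal as a random block, 1 fit over 18 arrays, trended and robust eBayes, the methods' t-test (unadjusted p 0.011) and the exact sign-flip test. Leaving out each animal gave 1.52 to 2.03. MPLA against LPS passed with array weights (-1.21) and by the methods' t-test as run here (-0.87, unadjusted p 0.038). The paper gives this probe a similar ratio of MPLA to LPS, but with a p above its own cutoff. The source of that mismatch was not tested. Leaving out each animal gave -1.12 to -0.67. Array weights called 1693 and 2094 probes in these comparisons, so calls under that setting say little of PTGS2.

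With no replicate block the PTGS2 values were 2.63, 1.76 and -0.87 (adjusted p 0.005, 0.36 and 1.0), and no call changed. Calls over all probes differed by over 1.5 times as follows. For LPS against PBS (37) they were 101 with array weights, 61 with the covariate, 71 by the methods' t-test and 10 after its adjustment. For MPLA against PBS (41) they were 24 without a filter, 26 with slide as the block, 284 without animal 20, 92 by the methods' t-test and 14 after its adjustment. For MPLA against LPS (2) they ran from 0 to 2094. Of the MPLA against PBS calls, 31 were higher and 10 lower, against 43 and 7 with median scaling and 29 and 2 with no scaling, and the MPLA against LPS calls were 0 higher and 2 lower, against 2 and 0 and 3 and 0. Median scaling moved the median change of all tested probes from -0.09 to 0.14 for MPLA against PBS, where the median lay at the fixed low value on 3 PBS arrays. Dim probes, the second PTGS2 probe among them, give only a bound.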
